A study of Homo sapiens with 6 samples.

Results

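The genes of respiratory complex I were followed in RNA-seq of LN229, an established cell line from a human glioblastoma, after transduction with LACTB or with vector. Members were the rows of the deposited table whose symbol begins with NDUFA, NDUFB, NDUFC, NDUFS, NDUFV, NDUFAB or NDUFAF and a number. Pseudogene, antisense and divergent transcript symbols were left out. The rule found 47 of 24480 gene symbols. They were 37 nuclear subunits, 8 assembly factors of the NDUFAF series, and NDUFA4 and NDUFA4L2, which carry the name but are not subunits of complex I. All 47 passed the filter on low values, which kept 12939 genes for testing.

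The groups were 3 libraries of LN229 cells transduced with LACTB and 3 libraries of LN229 cells transduced with vector, with no other treatment given in the labels. The study set out to learn what LACTB does in glioma cells. The labels name neither the promoter that drives LACTB nor whether the cells were a clone or a pool. Separate cultures behind the libraries of a group are not stated either, so the p-values rest on a spread among these libraries that may be technical only.

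Complex I takes electrons from NADH, passes them along a chain of iron-sulfur clusters in an arm that reaches into the mitochondrial matrix, and hands them to ubiquinone. The energy released drives proton pumping by the arm that lies in the inner membrane. The catalytic core subunits are shared with bacteria, and the supernumerary subunits surround them. The core subunits of the membrane arm, the pumps among them, are encoded by mitochondrial DNA and all other subunits by nuclear DNA. Dedicated assembly factors join the modules and then leave. LACTB is a mitochondrial protein of the intermembrane space, related to bacterial beta-lactamases.

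Values are the authors' normalized read counts, and column totals ran from 34907394 to 35683869 in LACTB libraries and from 38049489 to 41384595 in vector libraries. Genes above 0 numbered 20809, 20500 and 23061 in LACTB libraries 1 to 3, and the same 22538 in each vector library. Whether the columns of both groups were processed alike is not stated and was not tested. LACTB itself had 4268, 4078 and 4203 normalized counts in LACTB libraries 1 to 3, against 458, 515 and 393 in vector libraries 1 to 3. This was a log2 difference of 3.21 (SE 0.13, adjusted p = 2.9e-14 by limma). The glial genes VIM and NES averaged 35300 and 38875 normalized counts in LACTB libraries, against 25367 and 33779 in vector libraries. Of 7 glial markers, 5 had the higher mean with LACTB, while S100B averaged 14499 in LACTB libraries and 33778 in vector libraries and OLIG2 302 and 445. Of 3 immune markers, PTPRC and CD3E were at most 14.6 in any library and CD14 at most 52.9. Among endothelial markers, VWF ran from 100 to 195 and PECAM1 from 34.2 to 61.5, and CDH5 was at most 16.8. Among neuronal markers, SYT1 ran from 83.3 to 436 and RBFOX3 was at most 32.9. The glial marker GFAP ran from 72.3 to 126. Across all tested genes the median log2 difference, LACTB minus vector, was 0.05. At an adjusted p under 0.05 from limma with Benjamini-Hochberg adjustment, 24.6% of them were lower and 27.4% higher with LACTB.

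Most nuclear subunit transcripts were lower in LACTB cells. Of 37 subunits, 31 fell, 1 rose and 5 did not pass the test, where the shares over all tested genes were 24.6% lower and 27.4% higher. The median log2 difference of the subunits was -0.50, and single subunits ran from -0.90 to 0.41. In 31 subunits every LACTB library was below every vector library, an order seen in 28.7% of all tested genes, and in 0 subunits was it the other way round, against 31.1% of all tested genes. Summed over the 37 subunits, LACTB libraries 1 to 3 gave 0.427%, 0.421% and 0.435% of their column totals to these genes, against 0.601%, 0.495% and 0.556% in vector libraries 1 to 3. Fewer transcripts in every cell and loss in some cells cannot be told apart in bulk RNA.

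**Figure D1:**
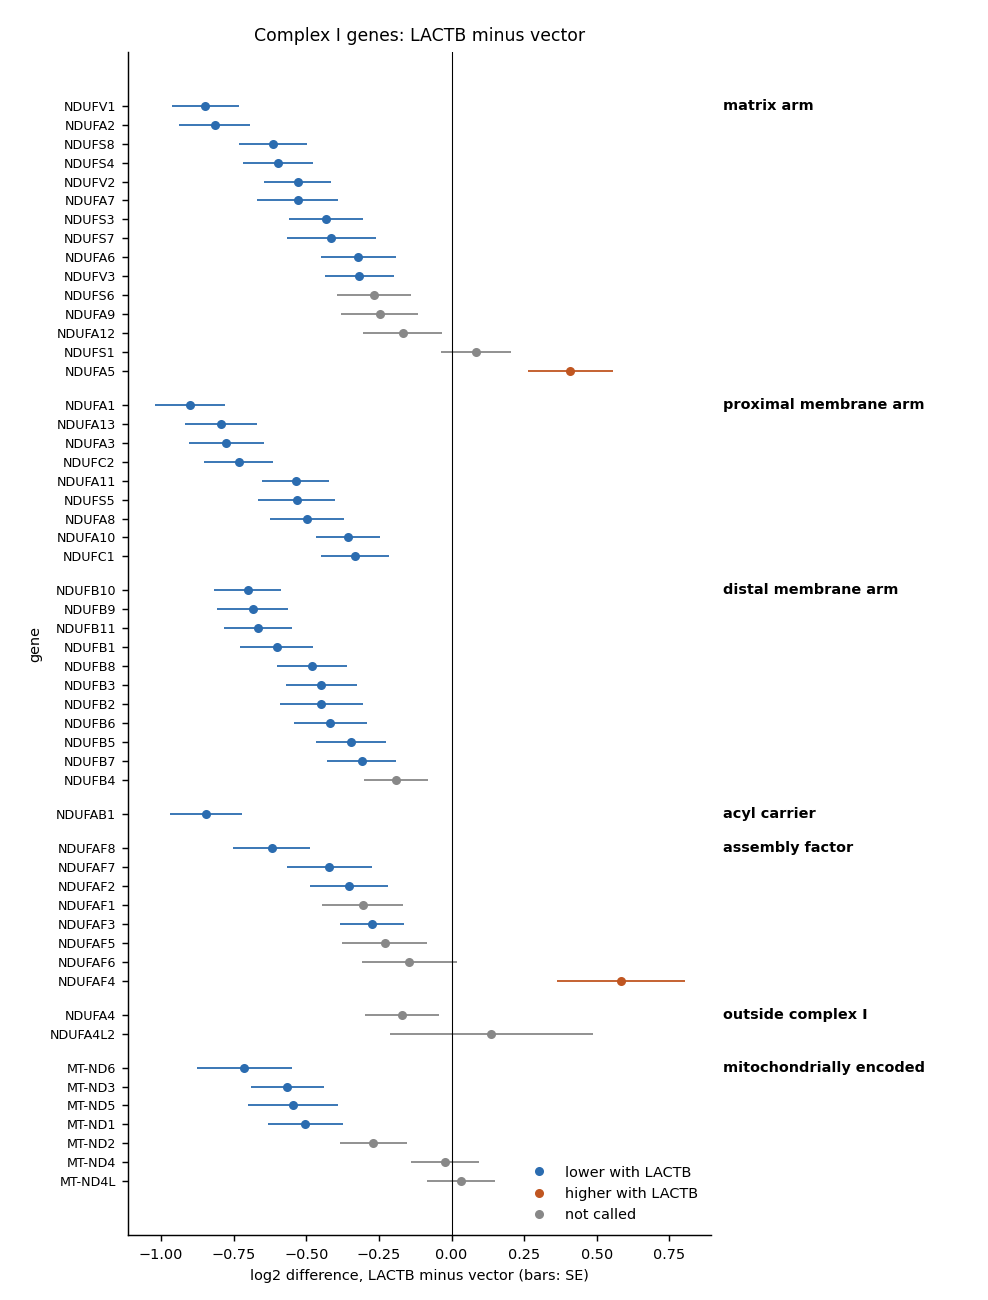
Log2 difference in normalized count, LACTB minus vector, for complex I genes, with bars of 1 SE from limma on 3 libraries per group; genes are grouped by their place in the complex, and colour marks the call at an adjusted p under 0.05. Not every subunit is drawn; of all 37 nuclear subunits, 31 were called lower, and their median was -0.50.

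The number of subunits called moved with the scaling of the libraries. With each column brought to an equal total, 19 subunits were lower and 1 higher, against 14.8% lower and 38.4% higher over all tested genes. That scaling moved the median of all genes to 0.24 and the median of the subunits to -0.31. Relative to the median of all genes, the subunits stood at -0.54 both as deposited and with equal column totals. Quantile normalization gave 25 lower and 0 higher at a relative median of -0.37, against 25.5% lower and 24.8% higher over all tested genes. Median centring gave 34 lower and 0 higher, against 32.1% lower and 20.7% higher.

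Subunit transcripts are short, and in these libraries short and GC-rich transcripts tended to be lower with LACTB. The principal transcripts of the 37 subunits had a median length of 958 bases, against 3093 bases over all tested genes. Of the subunits, 29 were in the shortest of 5 length bins, below 1766 bases, and 26 of these were lower, where 41.9% of all genes in that bin were lower. The median log2 difference of all genes in that bin was -0.27. In the bin of highest GC content, 8 of 8 subunits were lower, against 44.4% of all genes there. Across genes, Spearman's rho between log2 difference and GC content was -0.45 over the 37 subunits and -0.46 over 12828 tested genes, and that with length was 0.18 and 0.42. Genes are not independent replicates, so these are descriptions.

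**Figure D2:**
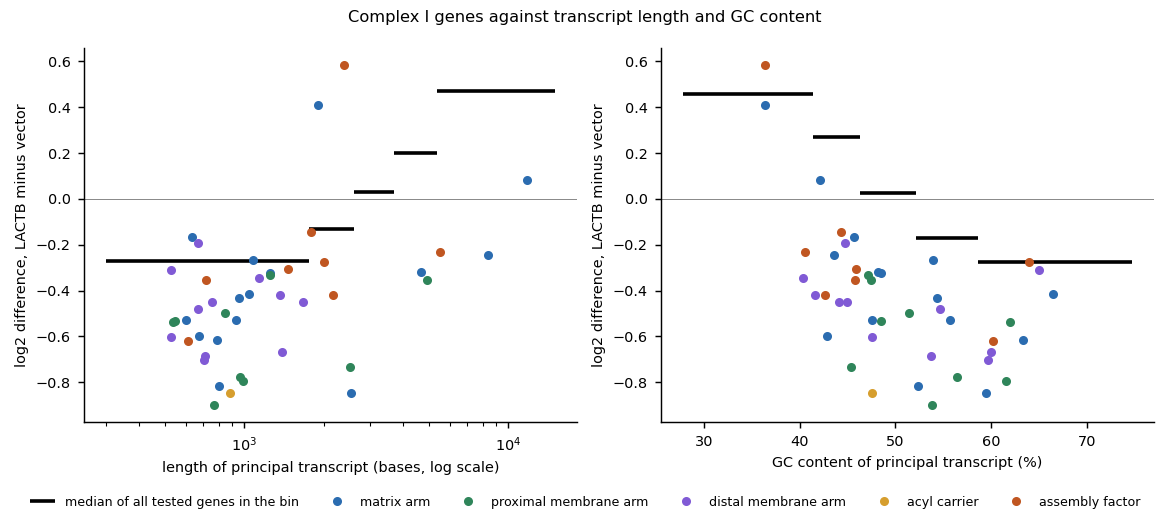
Log2 difference, LACTB minus vector, of nuclear complex I subunits and NDUFAF genes against the length in bases (left, log axis) and the GC content in percent (right) of the principal transcript; black bars are medians of all tested genes in 5 bins, with the outermost length bins drawn only as far as the axis. Most subunits lie in the shortest bin and below its median of -0.27.

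A smooth trend on length and GC content was then taken out of every library. After this, 22 subunits were lower and 2 higher, against 21.7% lower and 27.4% higher over all genes with both properties. Their median was -0.27, and 20 of the 31 lower calls were kept. Relative to the median of all genes the subunits stood at -0.33. Equal column totals together with this removal gave 13 lower and 6 higher, against 11.8% lower and 43.2% higher over all genes. What part of the difference belongs to length or GC content was not tested. Lower calls held in every one of 22 alternative settings for 6 of the 31 subunits, among them NDUFA1, NDUFAB1, NDUFC2, NDUFS4 and NDUFV1. The sign turned in at least 1 setting for 13 of the 31. These subunits were picked out after their values were seen.

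**Figure D3:**
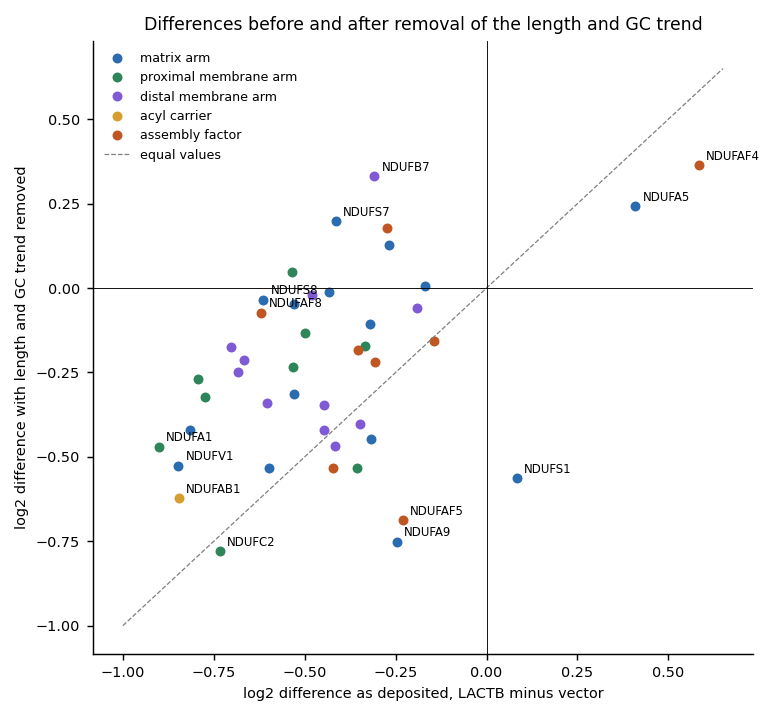
Log2 difference, LACTB minus vector, of nuclear subunits and NDUFAF genes as deposited (horizontal axis) and after removal of the length and GC trend (vertical axis); the dashed line marks equal values and colour marks the place in the complex. NDUFV1, NDUFA1 and NDUFAB1 stay below -0.4 on both axes, NDUFS7 and NDUFB7 change sign, and NDUFS1 and NDUFA9 lie lower after removal.

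Electrons enter complex I at the tip of the matrix arm. NDUFV1, which binds NADH and the flavin that accepts its electrons (chromosome 11, 67605653 to 67612554, plus strand, GRCh38), had 7906, 7640 and 7457 normalized counts in LACTB libraries, against 14009, 11982 and 15633 in vector libraries. The groups did not overlap, at a log2 difference of -0.85 (SE 0.12, adjusted p = 3.9e-06 by limma). Its neighbour NDUFV2, which holds an iron-sulfur cluster beside the flavin (chromosome 18, 9102630 to 9134345, plus strand), had 2697, 2704 and 2890 in LACTB libraries, against 4377, 3545 and 4094 in vector libraries. It fell by 0.53 on the log2 scale (SE 0.11, adjusted p = 0.00055), with no overlap between groups. Both calls remained with length and GC removed, at -0.53 for NDUFV1 and -0.31 for NDUFV2.

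NDUFS1, the largest iron-sulfur protein of the arm (chromosome 2, 206114817 to 206159603, minus strand), did not follow them. It had 5085, 5023 and 5563 normalized counts in LACTB libraries, against 5809, 4737 and 4339 in vector libraries. The groups overlapped, with the highest and the lowest value both in vector libraries, and the log2 difference was 0.08 (SE 0.12, adjusted p = 0.58). Its principal transcript is the longest of the subunits at 11819 bases, and with length and GC removed the difference was -0.56 (adjusted p = 0.0020). With length and GC of the coding sequence removed it was -0.30 (adjusted p = 0.012).

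Further core subunits of the matrix arm lead electrons towards ubiquinone. NDUFS8, which carries iron-sulfur clusters on that path, had 4935, 4409 and 4752 normalized counts in LACTB libraries, against 7320, 6249 and 8105 in vector libraries. The log2 difference of NDUFS8 was -0.61 (SE 0.12, adjusted p = 0.00016), with no overlap, but -0.03 with length and GC removed (adjusted p = 0.67).

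NDUFS3, a scaffold of that part of the arm, had 4204, 4181 and 3977 normalized counts in LACTB libraries, against 6576, 4488 and 5823 in vector libraries. Vector library 2 came close to the LACTB libraries without overlap, and the log2 difference was -0.43 (adjusted p = 0.0067). NDUFS7, which holds the last cluster before ubiquinone, had 459, 470 and 444 in LACTB libraries, against 649, 525 and 665 in vector libraries. It fell by 0.41 (log2, adjusted p = 0.026), again with vector library 2 nearest to the LACTB libraries. Neither call remained with length and GC removed, at -0.01 for NDUFS3 (adjusted p = 0.91) and 0.20 for NDUFS7 (adjusted p = 0.17), or with equal column totals (adjusted p = 0.088 and 0.22). The NDUFS7 call was also lost without any 1 LACTB library and without vector library 3, with adjusted p from 0.066 to 0.098.

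**Figure D4:**
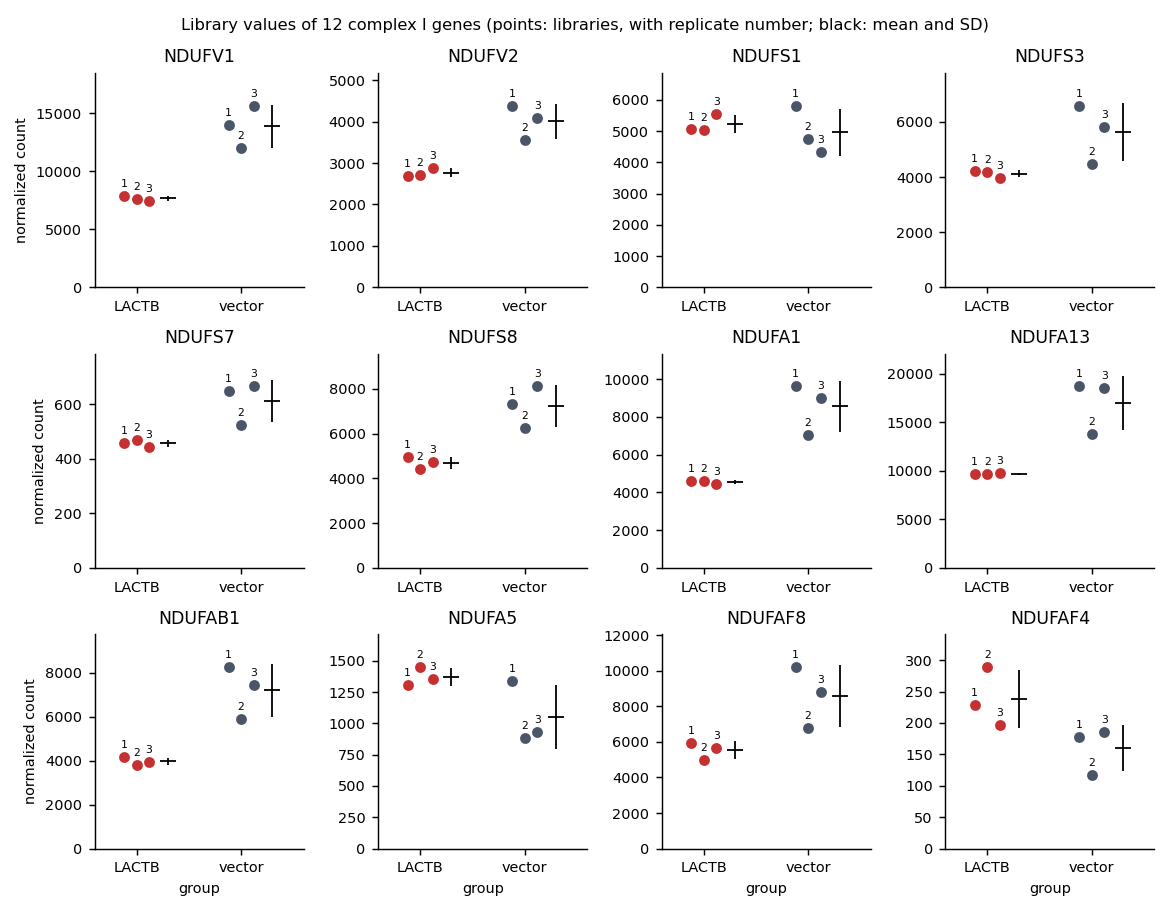
Normalized counts per library of 12 complex I genes, with replicate numbers beside the points and the mean and SD in black, LACTB on the left of each panel and vector on the right. In NDUFV1, NDUFA13 and NDUFA1 the LACTB libraries lie together below all vector libraries, and in NDUFA5 vector library 1 reaches the LACTB libraries.

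Of the 16 matrix arm subunits, core and supernumerary, 11 were lower and 1 higher, against 24.6% and 27.4% of all tested genes. Their median log2 difference was -0.42. With equal column totals 6 were lower and 1 higher, against 14.8% and 38.4%. After removal of length and GC 8 were lower and 1 higher, against 21.7% and 27.4%. With both changes 7 were lower and 3 higher, against 11.8% and 43.2%, at a median of -0.02. As deposited, NDUFA2, a small supernumerary subunit of the NADH end, was the next lowest of the arm after NDUFV1. It had 2723, 2567 and 2664 normalized counts in LACTB libraries, against 5484, 3930 and 4717 in vector libraries, a log2 difference of -0.82 (SE 0.12, adjusted p = 1.1e-05) without overlap. The difference was -0.42 with length and GC removed, still called, and -0.19 with those of the coding sequence removed (adjusted p = 0.075).

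NDUFA5, a supernumerary subunit of the ubiquinone module (chromosome 7, 123536997 to 123558255, minus strand), was the only subunit called higher. It had 1311, 1451 and 1355 normalized counts in LACTB libraries, against 1341, 882 and 929 in vector libraries. Vector library 1 lay within the LACTB range, and the log2 difference was 0.41 (SE 0.15, adjusted p = 0.022). The call depended on single libraries. Without LACTB library 2 the adjusted p was 0.074, without vector library 2 it was 0.13 and without vector library 3 it was 0.12. Without vector library 1 the difference was 0.60. With length and GC of the longest transcript in place of the principal transcript it was -0.02. GENCODE lists 12 pseudogenes named after NDUFA5, so its value is uncertain wherever counting divided reads between copies.

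NDUFA9, which helps to form the ubiquinone pocket, had 4058, 3562 and 3692 normalized counts in LACTB libraries, against 5701, 3776 and 4138 in vector libraries. The groups overlapped and the log2 difference was -0.25 (adjusted p = 0.12), or -0.37 and called without vector library 2 (adjusted p = 0.037). As with NDUFS1, its principal transcript is long, at 8363 bases, and after removal of length and GC the difference was -0.75 (adjusted p = 0.0019). NDUFA12, at the middle of the arm, had 1610, 1731 and 1722 in LACTB libraries, against 2420, 1701 and 1656 in vector libraries. Only vector library 1 stood above the rest, and the log2 difference was -0.17 (adjusted p = 0.31). NDUFS6, which binds zinc, was the other matrix arm subunit that did not pass the test, at -0.27 (adjusted p = 0.081), or -0.43 and called without vector library 2 (adjusted p = 0.0026). It was also called lower with median centring (adjusted p = 0.019). It stood at 0.13 with length and GC removed, and it was called higher with those of the coding sequence removed (0.28, adjusted p = 0.011) and with equal totals as well as length and GC removed (0.32, adjusted p = 0.0014).

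All 9 supernumerary subunits of the proximal membrane arm, the part next to the matrix arm, were lower, against 24.6% of all tested genes. Their median was -0.54, with a range of -0.90 to -0.33. NDUFA1, a small membrane protein needed for assembly (chromosome X, 119871487 to 119876662, plus strand), had the largest fall of all subunits. It had 4596, 4596 and 4431 normalized counts in LACTB libraries, against 9610, 7035 and 9019 in vector libraries. The groups were far apart, with means of 4541 ± 95.1 in LACTB cells and 8554 ± 1349 in vector cells (SD, n = 3 each). The log2 difference was -0.90 (SE 0.12, adjusted p = 2.7e-06), and removal of length and GC left -0.47 (adjusted p = 0.00018).

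NDUFA13, also known as GRIM-19 (chromosome 19, 19515736 to 19529054, plus strand), had 9655, 9637 and 9796 normalized counts in LACTB libraries, against 18681, 13741 and 18536 in vector libraries. It fell by 0.79 on the log2 scale (SE 0.12, adjusted p = 1.8e-05) with no overlap. After removal of length and GC it was lower by 0.27 (adjusted p = 0.013). Of the 9 proximal subunits, 7 were lower with equal column totals, against 14.8% of all tested genes. After removal of length and GC 5 were lower, against 21.7%, and with both changes 3 were lower and 1 higher, against 11.8% and 43.2%.

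Of the 11 distal membrane arm subunits, NDUFB1 to NDUFB11, 10 were lower, against 24.6% of all tested genes, with a median of -0.45. LACTB libraries lay below vector libraries in all 11, an order seen in 28.7% of all tested genes. With equal column totals 5 were lower and 0 higher, against 14.8% and 38.4%. After removal of length and GC 8 were lower and 1 higher, against 21.7% and 27.4%. With both changes 2 were lower and 2 higher, against 11.8% and 43.2%. As deposited, the differences ran from -0.70 in NDUFB10 to -0.19 in NDUFB4. NDUFB4 had 4894, 4569 and 5238 normalized counts in LACTB libraries, against 5485, 5342 and 5960 in vector libraries. Its groups did not overlap, yet the difference did not pass the test (adjusted p = 0.15), and GENCODE lists 12 pseudogenes named after it. NDUFB7 fell by 0.31 (adjusted p = 0.033) but stood at 0.33 with length and GC removed (adjusted p = 0.0040), where it was called higher. Its lower call was lost without any 1 of LACTB libraries 1, 2 and 3 and without vector library 3, with adjusted p from 0.060 to 0.13.

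NDUFAB1, the mitochondrial acyl carrier protein, sits in both arms and also serves mitochondrial fatty acid and lipoic acid synthesis (chromosome 16, 23581002 to 23596356, minus strand). It had 4149, 3819 and 3948 normalized counts in LACTB libraries, against 8271, 5888 and 7453 in vector libraries. Every LACTB library was below every vector library, at a log2 difference of -0.85 (SE 0.12, adjusted p = 7.7e-06). Removal of length and GC left -0.62 (adjusted p = 3.4e-05).

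Levels per kilobase of principal transcript placed NDUFS5 first among the subunits, at 13625 normalized counts per kilobase in LACTB cells and 20024 in vector cells. NDUFV3, NDUFS1 and NDUFA9 took the lowest places in vector cells, where their long principal transcripts, of 4676, 11819 and 8363 bases, enter as the divisor.

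Vector libraries varied more than LACTB libraries in the subunits, and together. The median coefficient of variation over the 37 subunits was 4.28% in LACTB libraries and 15.3% in vector libraries, against 7.05% and 14.1% over all tested genes. Vector library 2 was the lowest vector library in 33 of 37 subunits, against 29.5% of all tested genes. Vector library 1 was the highest in 23, against 36.7% of all tested genes. Without vector library 2, 32 subunits were lower, against 24.8% of all tested genes, and the median difference was -0.63. Without vector library 1, 29 were lower, against 26.8%, and the median was -0.37.

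Promoter sequences of these genes are shown because motifs of NRF1, a transcription factor known for its control of respiratory chain genes, and of YY1 and ETS factors lie in several of them. RefSeq promoter windows of GRCh38.p14 could be used for 28 of the 37 subunits, reaching from 250 bases before to 50 bases after the gene start. Only full-length windows were used, and a symbol with several of them was left out. No usable window remained for NDUFA5, NDUFB5, NDUFB8, NDUFB9, NDUFC1, NDUFC2, NDUFS1 and NDUFS5, among others. Each line runs from position -90 to position 30 around the start, on the gene's own strand from 5′ to 3′. Capitals mark a match on either strand to GCATGCGC (NRF1), AAGATGGCG (YY1) or CCGGAAG (ETS).
NDUFS7: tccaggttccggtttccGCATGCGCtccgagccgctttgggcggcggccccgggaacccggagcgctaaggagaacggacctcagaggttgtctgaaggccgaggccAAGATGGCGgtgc
NDUFA8: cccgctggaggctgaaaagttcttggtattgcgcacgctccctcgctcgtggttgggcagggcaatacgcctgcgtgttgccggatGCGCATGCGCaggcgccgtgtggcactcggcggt
NDUFA7: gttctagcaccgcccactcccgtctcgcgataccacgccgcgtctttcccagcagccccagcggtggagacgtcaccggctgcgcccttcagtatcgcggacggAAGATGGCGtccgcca
NDUFS4: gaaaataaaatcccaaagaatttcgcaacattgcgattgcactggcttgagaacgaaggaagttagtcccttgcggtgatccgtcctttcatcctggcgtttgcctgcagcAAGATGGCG
NDUFA9: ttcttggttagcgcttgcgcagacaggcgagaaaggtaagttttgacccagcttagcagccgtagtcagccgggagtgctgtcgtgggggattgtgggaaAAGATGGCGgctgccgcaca
NDUFA1: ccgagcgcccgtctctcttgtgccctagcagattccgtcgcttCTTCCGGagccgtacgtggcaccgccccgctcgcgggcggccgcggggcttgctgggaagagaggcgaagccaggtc

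The windows lie at chr19:1383817-1383936 (plus strand) for NDUFS7, chr9:122159750-122159869 (minus) for NDUFA8, chr19:8321346-8321465 (minus) for NDUFA7, chr5:53560549-53560668 (plus) for NDUFS4, chr12:4649024-4649143 (plus) for NDUFA9 and chrX:119871742-119871861 (plus) for NDUFA1. In NDUFA8 the capitals cover overlapping NRF1 matches on both strands, and in NDUFA1 the ETS match is on the opposite strand. The YY1 matches of NDUFS7, NDUFA7, NDUFS4 and NDUFA9 begin 18, 15, 22 and 11 bases from the start.

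Over the whole windows of 28 subunits, NRF1 letters were found in 5 (17.9%). This was against 6.14% of 7067 tested genes with a usable window and 3.27% of all 22114 usable windows. YY1 letters were found in 5 (17.9%), against 4.59% of tested genes and 1.86% of all windows. ETS letters were found in 4 (14.3%), against 21.8% and 10.7%, and the CCAAT box in 7 (25%), against 38.4% and 36.2%. Both motifs stood in called and in uncalled subunits. Of the 5 subunits with NRF1 letters, NDUFA6, NDUFA8 and NDUFS7 were lower and NDUFB4 and NDUFS6 were not called, where 24 of the 28 with a window were lower. The 5 with YY1 letters were NDUFA6, NDUFA7, NDUFS4 and NDUFS7, which were lower, and NDUFA9, which was not called. A match describes the letters and is no measure of binding.

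As deposited, assembly factors were less uniform than the subunits. Of the 8 NDUFAF genes, 4 fell and 1 rose, with a median log2 difference of -0.29, against 24.6% lower and 27.4% higher over all tested genes. LACTB libraries lay below vector libraries in 5 of them and above in 1, against 28.7% and 31.1% of all tested genes. Their summed share of the column total was 0.0341%, 0.0315% and 0.0329% in LACTB libraries, against 0.0438%, 0.0353% and 0.0389% in vector libraries. With equal column totals 1 of the 8 was lower and 1 higher, against 14.8% and 38.4% of all tested genes. After removal of length and GC 2 were lower and 0 higher, against 21.7% and 27.4%, so the lower share was near that of all genes under both settings. Other settings gave more. Quantile normalization gave 5 lower and 0 higher, against 25.5% and 24.8%, and median centring 6 lower and 0 higher, against 32.1% and 20.7%. With length and GC of the coding sequence removed, 4 NDUFAF genes were lower and 1 higher, against 22.3% and 27.2%. Without LACTB library 1, 2 or 3 in turn, 2, 1 and 1 were lower, against 21.1%, 19.6% and 19.9% of all tested genes. Without vector library 1, 2 or 3 in turn, 3, 4 and 3 were lower, against 26.8%, 24.8% and 21.3%. The median of the NDUFAF genes lay above that of the subunits as deposited. It lay below it with quantile normalization (-0.41 against -0.36) and with length and GC of the coding sequence removed (-0.32 against -0.19).

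NDUFAF8 and NDUFAF5 act together, NDUFAF5 as the enzyme that modifies NDUFS7. NDUFAF8 (chromosome 17, 81239239 to 81241281, plus strand) had 5968, 4992 and 5659 normalized counts in LACTB libraries, against 10220, 6762 and 8838 in vector libraries. It fell by 0.62 on the log2 scale (SE 0.13, adjusted p = 0.00054) without overlap, but stood at -0.07 with length and GC removed (adjusted p = 0.58). NDUFAF5 had 725, 636 and 640 in LACTB libraries, against 935, 709 and 718 in vector libraries. Its groups overlapped at -0.23 (adjusted p = 0.19), and after removal of length and GC it stood at -0.69 (adjusted p = 0.00087).

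NDUFAF3 and NDUFAF4 bind each other in the assembly of the ubiquinone module, and as deposited their transcripts moved in opposite directions. Under each removal of length and GC, both differences were positive. NDUFAF3 was called higher with length and GC of the longest transcript (adjusted p = 0.018) or of the coding sequence (0.0064) removed. It was also called higher with equal totals as well as length and GC removed (0.0017). NDUFAF3 had 2559, 2501 and 2479 normalized counts in LACTB libraries, against 2974, 2899 and 3254 in vector libraries. It fell by 0.27 (SE 0.11, adjusted p = 0.041) with no overlap, but stood at 0.18 with length and GC removed (adjusted p = 0.050). Its call was lost without any 1 of LACTB libraries 1, 2 and 3 and without vector library 3, with adjusted p from 0.080 to 0.15. NDUFAF4 (chromosome 6, 96889313 to 96897881, minus strand) had 229, 289 and 197 in LACTB libraries, against 178, 117 and 185 in vector libraries. It rose by 0.58 (SE 0.22, adjusted p = 0.030), with LACTB library 3 close to vector library 3. The call was lost without LACTB library 1 (adjusted p = 0.056), LACTB library 2 (0.17) or vector library 2 (0.16), and with length and GC removed (0.36 on the log2 scale, adjusted p = 0.18). GENCODE lists 4 pseudogenes named after it.

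NDUFAF7, a mitochondrial methyltransferase, had 505, 453 and 465 normalized counts in LACTB libraries, against 686, 596 and 625 in vector libraries. It fell by 0.42 (SE 0.15, adjusted p = 0.020) without overlap, and by 0.53 with length and GC removed (adjusted p = 0.0019). The call was lost without LACTB library 2 (adjusted p = 0.096) or LACTB library 3 (0.081). NDUFAF2, a late chaperone that resembles NDUFA12, had 1038, 997 and 953 in LACTB libraries, against 1520, 1097 and 1232 in vector libraries. It fell by 0.35 (adjusted p = 0.032) without overlap. That call was lost without any 1 of LACTB libraries 1, 2 and 3 and of vector libraries 1 and 3, with adjusted p from 0.056 to 0.12.

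NDUFAF1, which builds the membrane arm around the mitochondrially encoded subunits, had 650, 703 and 714 normalized counts in LACTB libraries, against 981, 821 and 765 in vector libraries. The groups did not overlap, yet the difference of -0.31 did not pass the test (adjusted p = 0.071). It was called lower without vector library 3 (adjusted p = 0.0385), with median centring (0.0098), with quantile normalization (0.0083) and with length and GC of the coding sequence removed (0.00094). NDUFAF6 had 486, 433 and 403 in LACTB libraries, against 581, 426 and 463 in vector libraries, with overlap and a difference of -0.14 (adjusted p = 0.47).

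Assembly factors outside the NDUFAF series were counted as 11 genes, and 4 of them were lower and 1 higher, with a median of -0.13, against 24.6% lower and 27.4% higher over all tested genes. With equal column totals 1 was lower and 1 higher, against 14.8% and 38.4%. TMEM186, of the machinery that builds the proximal pumps (chromosome 16, 8780384 to 8797648, minus strand), had 543, 583 and 630 normalized counts in LACTB libraries, against 1263, 942 and 1090 in vector libraries. It fell by 0.90 (SE 0.14, adjusted p = 2.2e-05) with groups well apart, and by 0.60 with length and GC removed. FOXRED1, an oxidoreductase-like factor, had 2410, 2191 and 2194 in LACTB libraries, against 3191, 2751 and 3239 in vector libraries (log2 difference -0.43, adjusted p = 0.0032). Its difference was -0.09 with length and GC removed (adjusted p = 0.31).

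DMAC1, a factor of the distal arm, had 3388, 3262 and 3089 normalized counts in LACTB libraries, against 4914, 3769 and 4200 in vector libraries (log2 difference -0.40, adjusted p = 0.0073). TIMMDC1, which assembles the part around MT-ND1, had 3418, 3119 and 3286 in LACTB libraries, against 4723, 4228 and 3833 in vector libraries (log2 difference -0.38, adjusted p = 0.0084). Neither overlapped, and both stayed lower with length and GC removed, at -0.62 and -0.48, though DMAC1 stood at 0.31 with those of the coding sequence removed. FOXRED1, DMAC1 and TIMMDC1 were not called with equal column totals, with adjusted p of 0.064, 0.12 and 0.17. The TIMMDC1 call was also lost without LACTB library 2 (adjusted p = 0.062).

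TMEM126B, a partner of NDUFAF1, had 640, 680 and 694 normalized counts in LACTB libraries, against 636, 430 and 457 in vector libraries. Vector library 1 almost reached the LACTB libraries, and the log2 difference was 0.42 (adjusted p = 0.031). Leaving out any 1 library other than vector library 1 ended this call, with adjusted p from 0.052 to 0.13.

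The mitochondrially encoded subunits split into those that fell and those that did not pass the test. Of 7, 4 were lower and 0 higher, with a median of -0.50, against 24.6% lower and 27.4% higher over all tested genes. MT-ND6, a membrane subunit and the only one encoded on the minus strand (mitochondrial chromosome, 14149 to 14673), had 13528, 13126 and 10647 normalized counts in LACTB libraries, against 14163, 24031 and 24506 in vector libraries. Vector library 1 stood close to the LACTB libraries, and the log2 difference was -0.71 (SE 0.16, adjusted p = 0.0012), or -0.97 without that library. The strand setting of the counting is not given, so MT-ND6 reads and reads from the opposite strand cannot be told apart.

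MT-ND5, the outermost pump, had 61425, 59310 and 48035 normalized counts in LACTB libraries, against 59588, 97116 and 94291 in vector libraries. Vector library 1 lay within the LACTB range, and the log2 difference was -0.55 (adjusted p = 0.0055). Without vector library 3 the call was lost (adjusted p = 0.085), and without vector library 1 the difference was -0.77. MT-ND3, a small subunit at the junction of the arms, had 22215, 25406 and 23949 in LACTB libraries, against 30630, 34152 and 41905 in vector libraries, a log2 difference of -0.57 (adjusted p = 0.00071). MT-ND1, which joins the ubiquinone channel to the membrane, had 46262, 44106 and 38711 in LACTB libraries, against 50648, 63048 and 70536 in vector libraries, a difference of -0.50 (adjusted p = 0.0026). MT-ND3 and MT-ND1 did not overlap between groups. With length and GC removed, MT-ND3 and MT-ND5 stayed lower. MT-ND1 stood at -0.28 (adjusted p = 0.13) and MT-ND6 at -0.64 (adjusted p = 0.056), and neither was called. With quantile normalization only MT-ND6 stayed lower (adjusted p = 0.015). MT-ND1, MT-ND3 and MT-ND5 then stood at -0.06, -0.16 and -0.15 (adjusted p = 0.72, 0.24 and 0.58).

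MT-ND2, a pump of the membrane arm, had 56357, 56091 and 48859 normalized counts in LACTB libraries, against 63446, 62605 and 68152 in vector libraries. It did not overlap but did not pass the test, at -0.27 (adjusted p = 0.055), and was called without vector library 1 (adjusted p = 0.021) or vector library 2 (0.0245). MT-ND4 and MT-ND4L, which share an mRNA and overlap on the genome, had the smallest differences of the 7. MT-ND4 had 113596, 118411 and 102597 in LACTB libraries, against 108434, 115335 and 115832 in vector libraries, a difference of -0.02 (adjusted p = 0.88). MT-ND4L had 22490, 24751 and 21923 in LACTB libraries, against 20046, 24109 and 23644 in vector libraries, a difference of 0.03 (adjusted p = 0.84). With quantile normalization they stood at 0.25 and 0.33 (adjusted p = 0.042 and 0.017).

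The order of the vector libraries differed between the genomes. Vector library 1 was the highest of the vector libraries in the summed nuclear subunits, and the lowest in the summed mitochondrially encoded ones. The mitochondrially encoded sums took 0.941%, 0.977% and 0.842% of the column in LACTB libraries, against 0.841%, 1.10% and 1.06% in vector libraries, and the groups overlapped. Removal of length and GC left 2 of the 7 lower, against 21.7% of all genes, and with quantile normalization 1 was lower and 2 were higher, against 25.5% and 24.8%. Other settings gave more lower calls. With length and GC of the coding sequence removed 6 were lower and 0 higher, against 22.3% and 27.2%. Median centring gave 5 lower and 0 higher, against 32.1% and 20.7%.

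**Figure D5:**
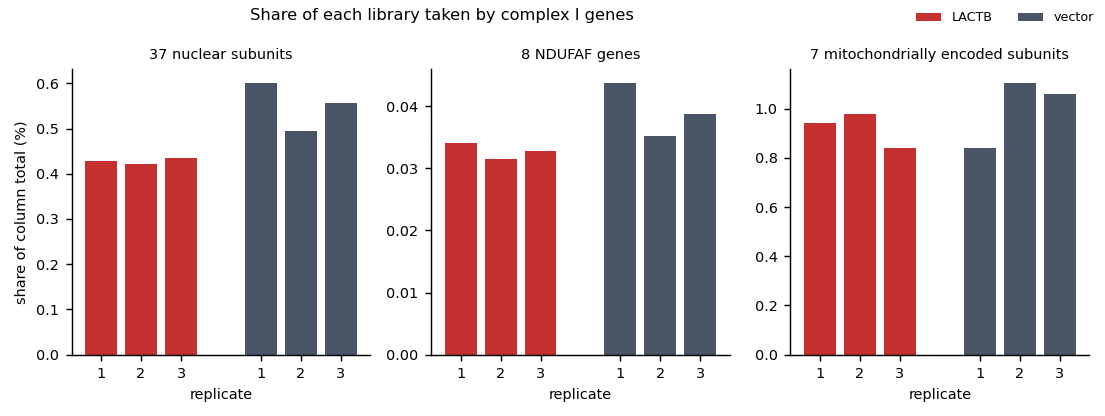
Share of the column total, in percent, summed over the 37 nuclear subunits, the 8 NDUFAF genes and the 7 mitochondrially encoded subunits, with 1 bar per library, LACTB left of vector. The nuclear subunits took 0.421% to 0.435% in LACTB libraries and 0.495% to 0.601% in vector libraries, while the mitochondrially encoded sums overlapped.

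NDUFA4, now assigned to complex IV, had 14826, 14458 and 15835 normalized counts in LACTB libraries, against 20777, 14333 and 16246 in vector libraries. The groups overlapped, at a log2 difference of -0.17 (adjusted p = 0.27), and after removal of length and GC it was -0.33 (adjusted p = 0.0077). NDUFA4L2, a hypoxia-induced relative of NDUFA4, was near the filter on low values. It had 46.6, 33 and 84.3 normalized counts in LACTB libraries, against 33.3, 52.1 and 56.2 in vector libraries, and its groups overlapped (log2 difference 0.14, adjusted p = 0.76).

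Genomic neighbours of the subunits did not share their direction on the whole. With length and GC removed, the median over the 50 nearest tested genes could be formed for 34 subunits and was below 0 for 13. The median over these windows was 0.08, against 0.07 over all windows, and single windows ran from -0.30 around NDUFV3 to 0.35 around NDUFB2. Around NDUFV1 and NDUFS8, both on chromosome 11, the windows stood at -0.28.

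The rule left out NDUFA6-DT, NDUFB2-AS1 and NDUFV2-AS1, transcripts that overlap or adjoin NDUFA6, NDUFB2 and NDUFV2. Only NDUFA6-DT reached the filter, at a log2 difference of 0.50 (adjusted p = 0.12). Without a stated strand setting, reads of these genes and of their partners cannot be told apart. GENCODE names pseudogenes after 19 of the 47 members, among them 6 of NDUFS5 and 5 of NDUFA3, and values of these members are uncertain where counting divided reads between copies.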

How the data were processed

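RNA-seq of 3 LACTB and 3 vector libraries of LN229 cells was analysed from 1 deposited table. Its unit is a signal per gene, a normalized read count that the authors deposited and that is not whole. The aligner HISAT2 and the genome build hg38 are named, without their settings, per the submitters' processing notes. For the counter, annotation, strand setting and scaling, the method is not given in the sources used here. A step worth 1 read was looked for among low values. Between 37.9% and 64.4% came out whole per library at a tolerance of 0.05, so reads were not recovered, no count model was run, and depth in reads is unknown. Precision rests on the spread between libraries.

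Values below 1e-10 were set to 0, and 9 repeated symbols kept their row of higher mean. Testing covered genes averaging 1 CPM or more, here 37.7 normalized counts, as log2(value + 1), a scale that understates changes of low genes. limma 3.58.1 in R 4.3.3 was used with trend and robust settings and no term beside group. Tests were two-sided, with Benjamini-Hochberg adjustment over all 12939 genes and a threshold of 0.05. The design had foreseen counts or scaled values, and its branch for scaled values was applied. All differences are LACTB minus vector. The fit was also run on simulated data with independent noise per gene and equal spread in both groups. These libraries differ in both respects, so that run does not test the calls given here.

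GENCODE release 29 (GRCh38) gave positions and, for principal transcripts of 99.1% of tested genes, length and GC content. For the length and GC correction a spline with 5 degrees of freedom per property was removed from each library. Promoter windows came from RefSeq (GRCh38.p14). Python 3.11.15 with matplotlib 3.10.9 drew the figures.

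Members and lists were chosen with earlier results of these data known. Library values are given for the 7 nuclear core subunits, the 5 subunits with the smallest adjusted p, the 5 with the highest log2 difference, every subunit called higher, all NDUFAF genes, NDUFA4, NDUFA4L2, NDUFAB1, the 7 mitochondrially encoded subunits and the called members of 11 other assembly factors. A gene that this rule takes is not reported here and not drawn, but counts and medians of its lists include it.

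Alternatives were quantile normalization, equal column totals, median centring, a filter at 5 CPM, no filter, pseudocounts of 0.1 and of 1 CPM, no trend or robust setting, a 1.5-fold minimum, a threshold of 0.01, the length and GC correction, a replicate block, and leaving out each library. The correction by longest transcript, by coding sequence, and with equal column totals was added after seeing the data.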

Additional observations from a re-analysis of the deposited data

How the results depend on the processing

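Depth in reads is unknown, and which scaling fits these libraries was not tested. The pseudocounts of 0.1 and of 1 CPM and the filter at 5 CPM changed no call of the 37 subunits. The lower subunits numbered 14 at 1.5-fold, 19 with equal column totals, 17 with length and GC of the coding sequence removed and 13 with equal totals and length and GC removed together, and 24 to 32 when 1 library was left out. The higher subunits numbered 2 with length and GC removed, 4 with those of the coding sequence, 6 with equal totals as well, and 0 at a threshold of 0.01, at 1.5-fold, with median centring, with quantile normalization and without trend and robust settings, and 0 to 1 with 1 library left out. Lower NDUFAF genes numbered 1 at a threshold of 0.01, at 1.5-fold and with equal totals, 2 with length and GC of the principal or longest transcript removed, with equal totals as well, and without trend and robust settings, and 1 to 4 with 1 library left out. They numbered 5 with quantile normalization and 6 with median centring. Higher NDUFAF genes numbered 0 at 0.01, at 1.5-fold, with length and GC removed, with median centring and with quantile normalization, 2 with equal totals and length and GC removed, and 0 to 1 with 1 library left out. Lower mitochondrially encoded subunits numbered 1 at 1.5-fold and with quantile normalization, 2 with length and GC of the principal or longest transcript removed, 0 with equal totals as well, and 3 to 5 with 1 library left out. They numbered 5 with median centring and 6 with length and GC of the coding sequence removed. Over all tested genes, lower calls numbered 1621 at 1.5-fold, 1913 with equal totals and 1516 with length and GC removed as well, and 2535 to 3468 with 1 library left out. Higher calls numbered 2350 at 1.5-fold, 5543 with equal totals and length and GC removed, and 2809 to 3873 with 1 library left out.

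Same-numbered libraries showed correlations of deviations of 0.02, 0.18 and 0.003, against -0.19 to 0.16 for libraries of unlike number. The highest was that of LACTB library 2 with vector library 2, while LACTB library 1 went best with vector library 3. Deviations within a group are tied by their mean, so these values cannot decide pairing. The labels do not tie equal numbers together, so the numbers are not taken to pair the libraries. A replicate block left 31 subunits lower and 1 higher and 3 NDUFAF genes lower. With length and GC removed as well, the block gave 2 subunits higher, 2 NDUFAF genes lower and 0 higher, and 1 mitochondrially encoded subunit lower.

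Among genes called as deposited or under the alternative named, signs turned as follows, and the cause was not tested. Genes called under neither are not listed. With length and GC removed, with or without the block, log2 differences were 0.048 for NDUFA11, 0.18 for NDUFAF3, 0.33 for NDUFB7, -0.56 for NDUFS1, 0.20 for NDUFS7 and 0.40 for ECSIT. With those of the longest transcript they were -0.016 for NDUFA5, 0.23 for NDUFAF3, 0.24 for NDUFB7, -0.55 for NDUFS1, 0.20 for ACAD9 and 0.45 for ECSIT. With those of the coding sequence they were 0.081 for NDUFA11, 0.047 for NDUFA6, 0.13 for NDUFA7, 0.28 for NDUFAF3, 0.24 for NDUFAF8, 0.11 for NDUFB2, 0.37 for NDUFB7, 0.27 for NDUFC1, -0.30 for NDUFS1, 0.28 for NDUFS6, 0.15 for NDUFS7, 0.16 for NDUFV3, 0.30 for ECSIT and 0.31 for DMAC1. With equal totals as well as length and GC removed they were 0.24 for NDUFA11, 0.085 for NDUFA6, 0.15 for NDUFA7, 0.059 for NDUFA8, 0.0094 for NDUFAF2, 0.37 for NDUFAF3, 0.12 for NDUFAF8, 0.019 for NDUFB10, 0.52 for NDUFB7, 0.17 for NDUFB8, 0.022 for NDUFC1, -0.37 for NDUFS1, 0.18 for NDUFS3, 0.32 for NDUFS6, 0.39 for NDUFS7, 0.16 for NDUFS8, 0.34 for ACAD9, 0.60 for ECSIT, 0.10 for FOXRED1 and 0.31 for DMAC2. With quantile normalization MT-ND4 stood at 0.25 and was called.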
